A study of Mus musculus with 33 samples.

Results

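The genes described here are 3 bone morphogenetic protein (BMP) ligands (Bmp2, Bmp4 and Bmp7), the 4 Id genes (Id1 to Id4) and 3 Smad genes (Smad6, Smad7 and Smad9). They were chosen by name as parts or common targets of the BMP pathway, with earlier results of these data known. They are 10 of the 47729 genes in the count tables. Their levels were followed in 33 RNA sequencing libraries from cultures of mouse retinal progenitor cells, which divide and later become retinal neurons and Muller glia. All groups started from C57BL/6J retinal progenitors of embryonic day 14, and the labels name no transgene or mutation in any of them. At day 0 there were untreated cells, cone primed cells treated with COCO protein, and rod primed cells treated with taurine and retinoic acid. Cone cells (COCO) and rod cells (taurine and retinoic acid) were then sampled at days 5, 12, 21 and 35. Each of the 11 groups had 3 libraries. The labels do not give the growth protocol, so how long each agent stayed in the medium is not known here. Nor do they say whether the 3 libraries of a group came from separate cultures or animals, so p-values measure the spread between these libraries, which may be technical.

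BMP ligands are secreted dimers that bind pairs of type I and type II serine/threonine kinase receptors. The active receptor phosphorylates Smad1, Smad5 and Smad9 (also called Smad8), which join Smad4 and enter the nucleus, where Id genes are among the best known direct targets. Id proteins bind basic helix-loop-helix (bHLH) transcription factors and keep them from DNA, while Smad6 and Smad7 are induced inhibitors that feed back on the receptors. In the eye, BMP signalling is known for setting dorsal identity in the retina and for its part in lens induction. COCO, encoded by Dand5, binds BMP, TGF-beta and Wnt ligands outside the cell and blocks them.

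On GRCm38 the ligand genes lie at chr2:133552159-133562885 (Bmp2, plus strand), chr14:46383520-46390669 (Bmp4, minus strand) and chr2:172868012-172940321 (Bmp7, minus strand). Smad6 lies at chr9:63953076-64022059 on the minus strand, Smad9 at chr3:54755582-54801257 on the plus strand and Smad7 on chromosome 18. The Id genes lie at chr2:152736251-152737410 (Id1, plus), chr12:25093799-25097140 (Id2, minus), chr4:136143497-136145755 (Id3, plus) and chr13:48261228-48266026 (Id4, plus). These are whole protein-coding genes as annotated in GENCODE M21, and counts are of reads assigned to the gene.

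The libraries held 7511837 to 19166442 reads in genes (median 12985662). Levels are given in CPM, counts scaled to a common library size. A count of 0 allows a level of up to 3 counts, which is 0.174 to 0.407 CPM depending on the library. Such floors, and the intervals on few counts below, cover counting error only. All 10 genes passed the filter on low counts, as did 18150 genes in all. The retinal progenitor markers were present in untreated cells: the 12 genes of that list summed to 1283 to 1430 CPM, with no gene at 0. Photoreceptor markers were low in both conditions by the end of culture. The 8 genes of that list, which includes Crx, Otx2, Rcvrn, Nrl, Arr3 and Opn1sw, had summed levels of 876 to 1179 CPM in untreated libraries. By day 35 the sums had dropped to 11.3 to 34.5 CPM in cone and 8.65 to 15.5 CPM in rod libraries, where Opn1sw was at 0 in the cone group and Arr3 in the rod group. Cone and rod are used below as names of the culture conditions.

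The sequences before the start sites of 4 of these genes are shown because the genes behaved differently from each other: Smad6 and Smad9 were lower in cone than in rod cells, Bmp4 was slightly higher, and Id4 did not pass the test between conditions. Each is the 250 bases before the start site from RefSeq (build GRCm38.p6), written 5′ to 3′ along the gene's strand. Capitals mark matches to GGCGCC, a palindrome, and to the related motif GGAGCC on either strand, where a match on the opposite strand appears as GGCTCC. Both are GC-rich sequences known to be bound by BMP Smads. Smad6 lies on the minus strand (chr9:64022060-64022309), Smad9 on the plus strand (chr3:54755332-54755581), Id4 on the plus strand (chr13:48260866-48261115) and Bmp4 on the minus strand (chr14:46390670-46390919). None of the 4 windows overlaps an exon on the same strand in GENCODE M21.
Smad6: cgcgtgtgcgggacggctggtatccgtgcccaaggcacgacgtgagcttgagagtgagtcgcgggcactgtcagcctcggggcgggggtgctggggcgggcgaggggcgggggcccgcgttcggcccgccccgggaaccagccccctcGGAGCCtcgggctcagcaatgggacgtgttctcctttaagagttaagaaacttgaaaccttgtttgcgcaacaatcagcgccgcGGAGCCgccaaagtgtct
Smad9: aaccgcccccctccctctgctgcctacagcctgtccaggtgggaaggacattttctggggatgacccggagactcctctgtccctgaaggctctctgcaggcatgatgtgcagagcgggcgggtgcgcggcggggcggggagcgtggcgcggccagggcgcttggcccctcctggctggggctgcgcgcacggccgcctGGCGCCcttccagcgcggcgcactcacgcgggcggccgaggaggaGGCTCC
Id4: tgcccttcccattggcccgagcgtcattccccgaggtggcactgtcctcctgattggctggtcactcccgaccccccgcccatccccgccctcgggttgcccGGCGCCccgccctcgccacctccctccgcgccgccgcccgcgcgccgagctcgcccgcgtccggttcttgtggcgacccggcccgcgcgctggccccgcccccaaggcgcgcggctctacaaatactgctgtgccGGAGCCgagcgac
Bmp4: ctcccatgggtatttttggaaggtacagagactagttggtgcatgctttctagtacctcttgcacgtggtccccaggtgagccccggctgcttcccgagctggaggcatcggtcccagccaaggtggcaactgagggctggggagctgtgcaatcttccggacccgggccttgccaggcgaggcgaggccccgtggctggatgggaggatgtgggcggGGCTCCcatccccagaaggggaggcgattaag
All 4 windows hold GGAGCC on one strand or the other, as 26.0% of the 32851 promoters in the RefSeq table do. Smad6 holds it at 2 places, 102 and 18 bases before the start site by their first base. Smad9 and Id4 also hold GGCGCC, a sequence found in 9.59% of promoters, whereas Smad6 and Bmp4 do not. GTCTG, the other common Smad sequence, was found in none of these 4 windows and in 42.2% of promoters on either strand. The GC content of the 4 windows ran from 63.2% in Bmp4 to 75.6% in Id4, against a median of 52.4% over all promoters, so these shares are not matched for base composition. Promoters with the same letters thus belonged to genes that differed between conditions (Smad9) and to one that did not pass the test (Id4).

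The first comparison asked what priming alone did to the pathway. None of the 10 genes was called after cone priming, while rod priming raised 5 of them. Those 5 were Bmp2, Id1, Id2, Smad6 and Smad9, and none fell. A gene was called at an adjusted p under 0.05 (edgeR's quasi-likelihood test with Benjamini-Hochberg adjustment over all genes tested). By that rule 10.3% of all genes were called between rod primed and untreated cells, 6.71% as higher. Between cone primed and untreated cells 0 of the 10 genes were called by edgeR and 0 by DESeq2, and 1 (Id1) had an unadjusted p under 0.05. In that comparison 0% of all genes were called, and 200 of the 18150 tested had an unadjusted p under 0.05. With 3 libraries a group, the lack of a call does not show that a gene was unchanged. The libraries of rod primed and untreated cells did not overlap for 5 of the 10 genes (33.6% of all genes), and those of cone primed and untreated cells for 2 (5.17%).

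Bmp2, a ligand known for inducing bone and for roles across development, was low in untreated cells at 0.512, 1.27 and 1.43 CPM. Cone primed libraries held 0.755, 1.70 and 0.943 CPM, and rod primed libraries 5.70, 6.95 and 14.1 CPM. All 3 rod primed libraries stood above every other day 0 library. The log2 fold change over untreated cells was 2.97 ± 0.41 (SE, adjusted p 1.57e-05). Smad6, an inhibitor that binds type I BMP receptors, was at 1, 0 and 2 counts in untreated libraries and at 2 counts in each cone primed library. In rod primed libraries it reached 19, 13 and 53 counts, or 2.58, 1.31 and 4.76 CPM. The ratio of rod primed to untreated cells was 37.4 (95% exact interval on the counts 12.4 to 185, adjusted p 1.08e-07). Smad9, the BMP Smad that is itself induced by the pathway, rose from 0.128, 0.333 and 0.340 CPM to 2.03, 0.806 and 2.96 CPM, a ratio of 6.72 (3.48 to 14.2, adjusted p 0.00147).

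Of the Id genes, Id2 and Id1 rose with rod priming. Untreated libraries held 6.65, 5.80 and 7.61 CPM and cone primed libraries 6.80, 12.5 and 6.81 CPM, against 29.8, 23.8 and 47.9 CPM in rod primed libraries. Its log2 fold change over untreated cells was 2.34 ± 0.28 (adjusted p 1.74e-06). Id1 rose from 1.54, 1.33 and 1.77 CPM to 3.26, 2.82 and 8.35 CPM, a log2 fold change of 1.66 ± 0.36 (adjusted p 0.0035). The Id1 result rested on 1 library: without rod primed replicate 3 it was 0.96 with an adjusted p of 0.121. That library was also the highest of its group for Id2, Id3, Id4, Smad6, Smad9, Bmp2, Bmp4 and Bmp7, that is, for all of the genes but Smad7. Those of these other genes that were called stayed so without it. Id3 (log2 fold change 0.55, adjusted p 0.342), Id4 (0.69, 0.194), Smad7 (-0.28, 0.447) and Bmp7 (-0.44, 0.244) did not pass the test. Nor did Bmp4, with 7 counts in rod primed and 3 in untreated cells (adjusted p 0.321).

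**Figure D1:**
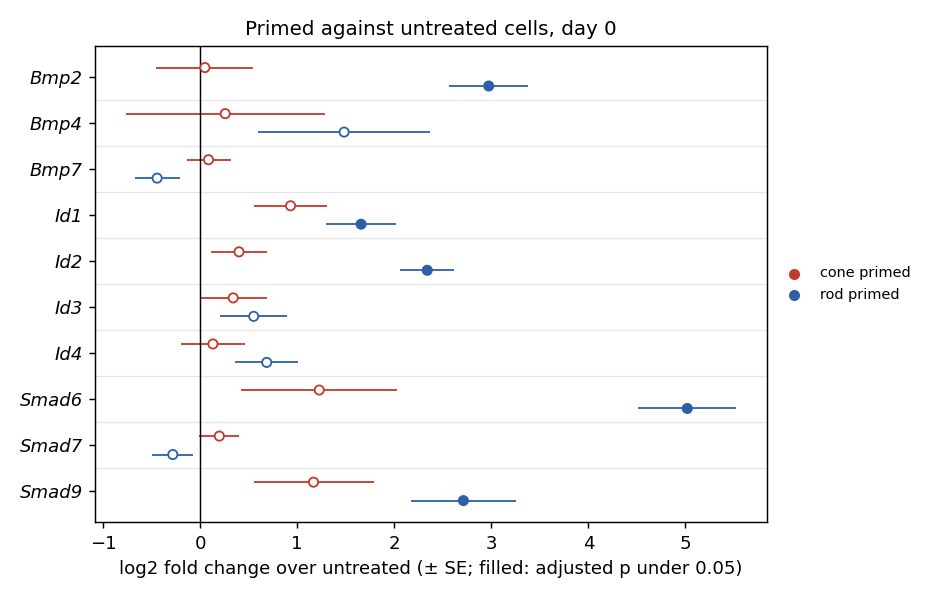
Log2 fold change of cone primed (red) and rod primed (blue) cells over untreated cells at day 0 for the 10 genes, with bars of 1 standard error and filled points for an adjusted p under 0.05. The filled points are the rod primed values of Bmp2, Id1, Id2, Smad6 and Smad9, from 1.66 for Id1 to 5.02 for Smad6.

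Other cell type and cell cycle markers moved with rod priming. Of 10 cell cycle genes 7 rose, their sum going from 868 to 1317 CPM in untreated to 1880 to 2366 CPM in rod primed cells. Of 10 Muller glia markers 7 rose (788 to 952 CPM against 1994 to 2446 CPM), and of 12 retinal progenitor markers 6 rose and 1 fell. No gene of any of these lists was at 0 in either group. Muller glia and progenitors are known to express Id genes, and the part of these cells in the rises above was not tested. In bulk RNA, more cells of a type and more RNA per cell cannot be told apart.

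Cone cells were next compared with rod cells of the same day. Over the mean of days 5 to 35, Bmp2, Smad9, Smad6, Id2 and Id3 were lower in cone than in rod cells. The ligands Bmp4 and Bmp7 were higher over that mean. By single days, Id3 was called at day 5 alone, Bmp4 at day 12 alone and Bmp7 at day 21 alone. Of the 10 genes, 3 were called at day 0 (all lower in cone primed cells, against 7.27% of all genes called and 4.77% called lower). At day 5, 5 were called, all lower (9.28% of all genes, 5.80% lower). At day 12, 1 was higher and 3 were lower (10.1% of all genes called, 5.98% higher and 4.12% lower). At day 21, 1 was higher and 4 were lower (9.00% called, 5.86% higher and 3.14% lower). At day 35, 3 were called, all lower (12.3% called, 4.51% lower). Over the mean of days 5 to 35, 7 of 10 were called, 2 higher and 5 lower, against 27.8% of all genes (15.6% higher, 12.2% lower). The median log2 fold change of the 10 genes over that mean was -0.41, and that of all genes tested was 0.01. In 5, 6, 4, 8 and 6 of the 10 genes at days 0, 5, 12, 21 and 35 the cone and rod libraries did not overlap, against 29.5%, 32.8%, 22.3%, 24.7% and 27.9% of all genes. The day 0 comparison and the comparison of rod primed with untreated cells share the rod primed libraries.

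**Figure D2:**
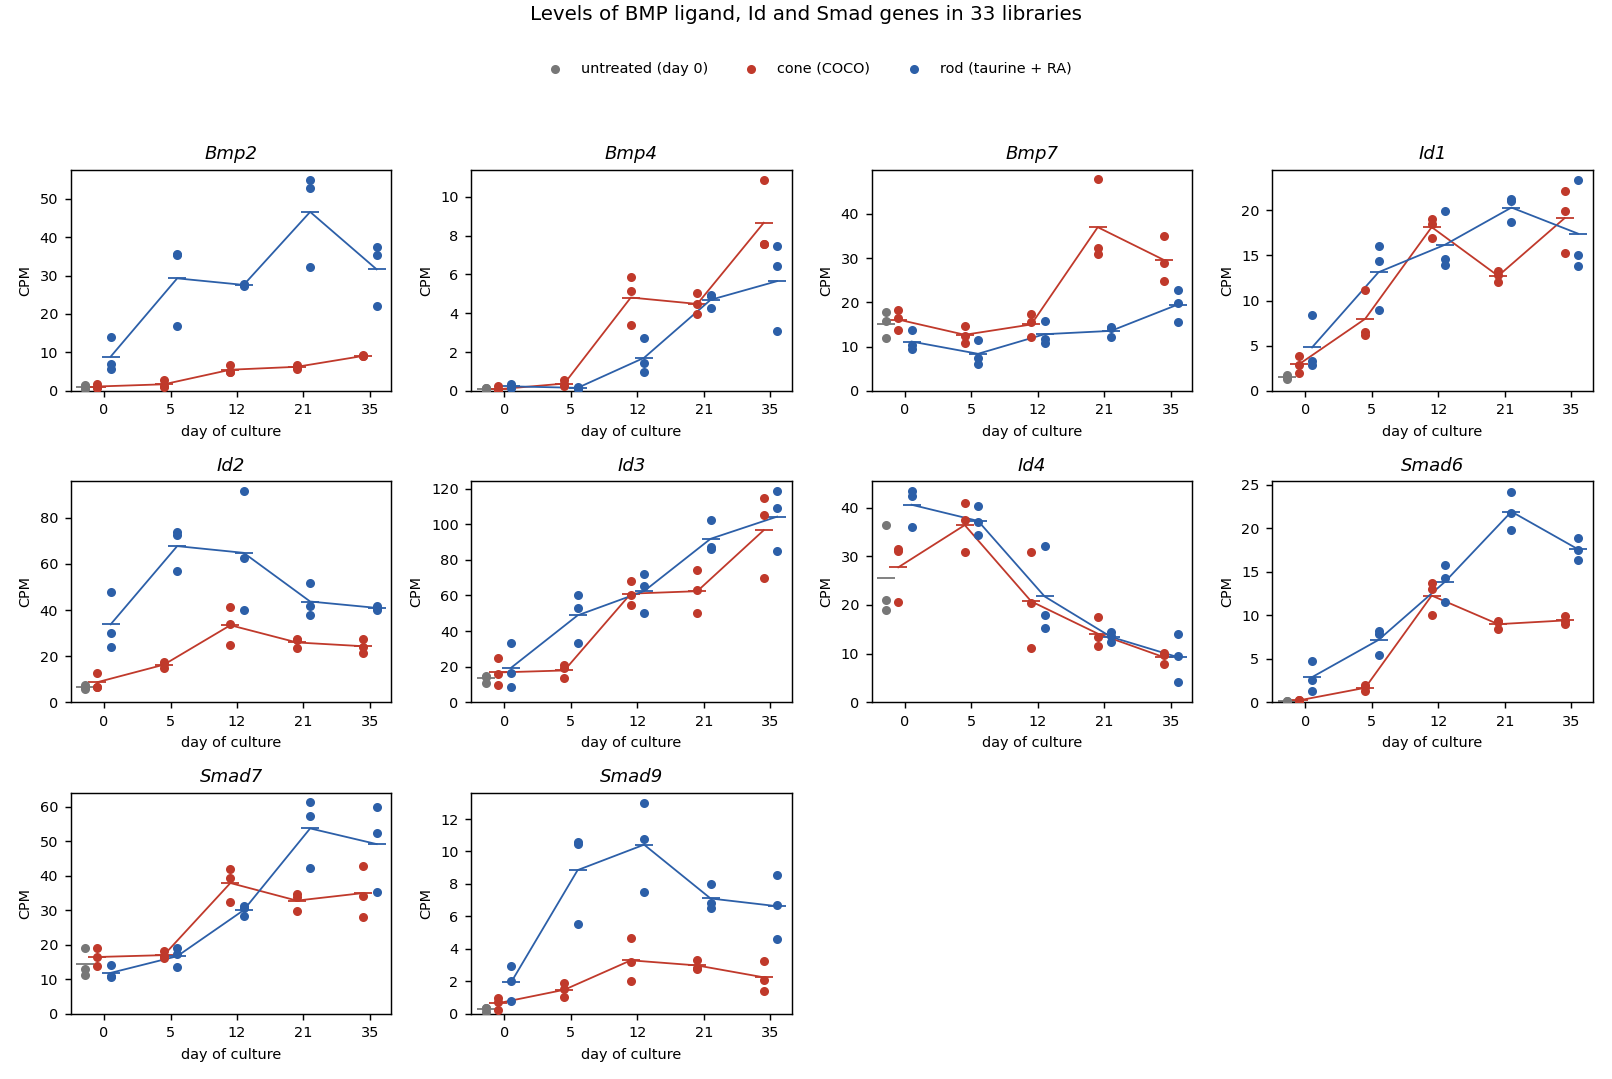
CPM of the 10 genes in every library by day of culture (days evenly spaced, each panel with its own axis from 0), for untreated (grey), cone (red) and rod (blue) cells, with a dash at each group mean. Bmp2 was higher in rod than in cone cells at every day, and Smad9 from day 5 on. Id4 fell in both conditions, and Bmp7 was highest in cone cells at day 21.

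Bmp2 was called at each of the 5 days, and at days 5, 12, 21 and 35 its log2 fold change was the largest of the 10 genes. At day 0 that of Smad6 was larger (-3.79 against -2.92). Rod libraries of day 5 held 35.5, 16.9 and 35.3 CPM, those of day 12 held 27.9, 27.6 and 27.2 CPM, those of day 21 held 54.7, 32.2 and 52.7 CPM, and those of day 35 held 22.2, 35.3 and 37.3 CPM. Cone cells held 2.81, 1.09 and 1.22 CPM at day 5, 6.65, 4.89 and 4.95 CPM at day 12, 6.30, 6.76 and 5.70 CPM at day 21 and 9.22, 9.01 and 9.04 CPM at day 35. No cone library reached any rod library of day 5 or later. Log2 fold changes (cone over rod) for days 0, 5, 12, 21 and 35 were -2.92 ± 0.42, -4.11 ± 0.37, -2.34 ± 0.34, -2.90 ± 0.34 and -1.80 ± 0.32, with adjusted p between 4e-08 and 0.000389. Its mean over days 5 to 35 was -2.78 ± 0.17 (adjusted p 2.67e-12). In the order of the 11 group means only 2 of 10 neighbouring pairs did not overlap: rod day 12 (27.6 CPM) above cone day 35 (9.09 CPM), and cone day 12 (5.50 CPM) above cone day 5 (1.71 CPM).

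Bmp4, a ligand that marks the dorsal retina in the embryo, was near the limit of detection early. It had 1, 0 and 2 counts in untreated libraries, 0, 3 and 0 in cone primed libraries and 1, 2 and 3 in rod libraries at day 5. At day 12 cone cells held 5.13, 3.42 and 5.88 CPM and rod cells 2.71, 0.955 and 1.44 CPM, without overlap. The log2 fold change there was 1.49 ± 0.40 (adjusted p 0.016). This call was lost without cone day 12 replicate 3 (1.31, 0.0908), rod day 12 replicate 2 (1.20, 0.0895) or rod day 12 replicate 3 (1.39, 0.0762), and with only the 2 compared groups in the model (1.48, 0.152). At day 21 the 2 conditions overlapped, and at day 35 the cone libraries (10.8, 7.55 and 7.59 CPM) lay just above the rod libraries (3.06, 7.44 and 6.46 CPM) with a log2 fold change of 0.61 ± 0.37 that did not pass (adjusted p 0.328). The mean over days 5 to 35 was 0.80 ± 0.24 (adjusted p 0.0117), and 0.68 (adjusted p 0.0229) over days 12 to 35 alone. Bmp4 overlaps the genes Gm15217 and Gm15222 on the opposite strand, and the strand setting of the counting is not given in the sources used here, so their reads cannot be told apart.

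Bmp7, a ligand needed for early eye development, stood at 15.7, 17.9 and 12.0 CPM in untreated cells. It peaked in cone cells at day 21, with 32.3, 47.9 and 30.9 CPM against 14.1, 12.2 and 14.3 CPM in rod cells. There the log2 fold change was 1.45 ± 0.22 (adjusted p 0.0001). Averaged across days 5 to 35 it was 0.72 ± 0.11 (adjusted p 1.96e-05). Cone cells held 24.9, 34.9 and 28.8 CPM at day 35, each above the rod libraries (22.9, 20.0 and 15.6 CPM), but this difference did not pass the test (0.60 ± 0.22, adjusted p 0.0754). At days 5 and 12 the groups overlapped.

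Mesenchyme markers were mostly higher in cone cells as well. Of 9 tested markers 6 were higher and 2 lower in cone cells by the mean across days 5 to 35. The list of 10, which includes Col1a1, Col1a2, Col3a1, Dcn, Lum and Pdgfrb, summed to 1200 to 1727 CPM in the cone group and 166 to 504 CPM in the rod group at day 12, and to 1762 to 4693 CPM and 687 to 1424 CPM at day 35. At day 21, where Bmp7 peaked in cone cells, the sums were 1055 to 1734 CPM in the cone group and 703 to 766 CPM in the rod group. No gene of the list was at 0 in cone cells from day 12 on. Microglia markers were also higher in cone cells over those days (5 of 5 tested), though their sum reached only 14.9 to 76.8 CPM at day 35 in cone cells against 1.19 to 1.70 CPM in rod cells. The other lists gave these counts: endothelium (2 higher and 1 lower of 3 tested), astrocyte (2 and 1 of 8), retinal pigment epithelium (2 and 0 of 2), lens (3 and 2 of 5), photoreceptor (3 and 0 of 8), retinal ganglion cell (1 and 1 of 6) and amacrine and horizontal cell markers (1 and 2 of 7). The part of these cells in the ligand levels was not tested.

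Among the Smads, Smad9 was lower in cone cells at each day after day 0. Rod cells held 10.6, 5.51 and 10.5 CPM at day 5, 7.50, 10.8 and 13.0 CPM at day 12, 6.49, 6.80 and 8.02 CPM at day 21 and 4.59, 8.57 and 6.71 CPM at day 35. Cone cells held 1.87, 1.03 and 1.51 CPM, then 4.66, 3.18 and 2.01 CPM, then 2.76, 2.82 and 3.33 CPM and finally 3.24, 1.37 and 2.10 CPM. The highest cone value (4.66 CPM, day 12) lay just above the lowest rod value (4.59 CPM, day 35), but within each day the groups did not overlap. The log2 fold change ran from -2.58 ± 0.40 at day 5 (adjusted p 9.05e-05) to -1.25 ± 0.38 at day 21 (adjusted p 0.0379), with -1.68 ± 0.38 at day 12 and -1.56 ± 0.39 at day 35. Its mean was -1.77 ± 0.19 (adjusted p 7.57e-08). The day 21 call was lost when any 1 of its 6 libraries was left out (highest adjusted p 0.122, without rod day 21 replicate 3), and the day 12 call with only the compared groups in the model (-1.69, adjusted p 0.0748). At day 0 the difference of -1.54 ± 0.49 did not pass (adjusted p 0.0555).

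For Smad6 the difference was present at days 0 and 5, was not called at day 12 and was present again from day 21. At day 0 cone primed and rod primed cells had 6 and 85 counts in all, a ratio of 0.0672 (0.0240 to 0.152, adjusted p 2.45e-06). At day 5 the cone libraries held 1.94, 1.76 and 1.28 CPM and the rod libraries 8.20, 5.43 and 7.85 CPM, a log2 fold change of -2.10 ± 0.28 (adjusted p 1.71e-05). At day 12 the groups met, at 10.0, 13.7 and 13.0 CPM in the cone group and 14.3, 11.5 and 15.7 CPM in the rod group (-0.17 ± 0.25, adjusted p 0.75). By day 21 they stood apart again, with 8.40, 9.33 and 9.18 CPM in the cone group and 21.8, 24.2 and 19.8 CPM in the rod group (-1.28 ± 0.25, adjusted p 0.00128). At day 35 the log2 fold change was -0.90 ± 0.25 (adjusted p 0.0164), which was lost without cone day 35 replicate 1 (-0.87, 0.0597) or replicate 3 (-0.90, 0.0541). The mean over days 5 to 35 was -1.11 ± 0.13 (adjusted p 1.96e-07).

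Smad7, an inhibitor of both BMP and TGF-beta receptors, was called at day 21 alone of the 5 days. Cone libraries held 34.8, 29.6 and 33.9 CPM there and rod libraries 57.3, 42.3 and 61.5 CPM. The groups did not overlap, and the log2 fold change was -0.71 ± 0.19 (adjusted p 0.0198). That call was lost without cone day 21 replicate 2 (-0.66, 0.0759) or replicate 3 (-0.74, 0.0504), or without rod day 21 replicate 1 (-0.67, 0.0575) or replicate 3 (-0.61, 0.104). At the other days the adjusted p was between 0.102 and 0.957.

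**Figure D3:**
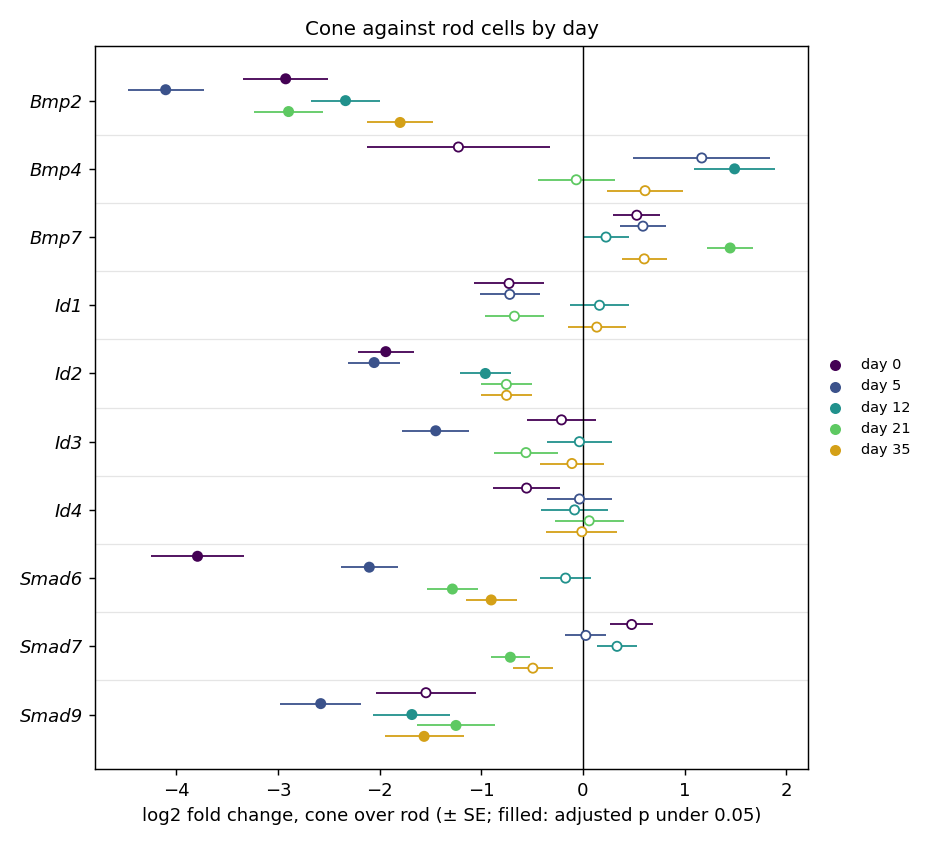
Log2 fold change of cone over rod cells at each day for the 10 genes, with bars of 1 standard error, days by colour and filled points for an adjusted p under 0.05. Bmp2 lies to the left of 0 at all 5 days, Smad6 at day 12 is the open point near 0, and the filled points to the right are Bmp4 at day 12 and Bmp7 at day 21.

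The 4 Id genes differed from each other in this comparison, with the same calls under DESeq2's scaling. Id2, which binds E proteins such as Tcf3 and Tcf4, was lower in cone cells at the early days. At day 5 cone libraries held 16.6, 14.7 and 17.6 CPM and rod libraries 72.6, 57.0 and 73.7 CPM, a log2 fold change of -2.05 ± 0.26 (adjusted p 7.47e-06), close to the day 0 value of -1.94 ± 0.27 (3.01e-05). At day 12 cone cells held 41.5, 34.1 and 24.7 CPM and rod cells 40.1, 91.6 and 62.8 CPM, with overlap (-0.96 ± 0.25, adjusted p 0.0132). The day 12 call was lost without rod day 12 replicate 2 (-0.63, 0.137) or cone day 12 replicate 3 (-0.78, 0.114), and with only the compared groups in the model (-0.98, 0.206). On days 21 and 35 the libraries did not overlap, with 23.5 to 27.4 CPM and 21.4 to 27.4 CPM in cone against 37.7 to 51.6 CPM and 40.0 to 41.8 CPM in rod cells, but the differences of -0.75 ± 0.25 on both days just missed the threshold (adjusted p 0.0615 and 0.0505). By the mean across days 5 to 35 Id2 was lower in cone cells, at -1.13 ± 0.13 on the log2 scale (adjusted p 1.22e-07).

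Id3 was called at day 5 alone of the 5 days, with cone cells at 20.9, 13.6 and 19.0 CPM against 60.1, 33.2 and 53.1 CPM (-1.45 ± 0.33, adjusted p 0.00471). Its mean over days 5 to 35 (-0.54 ± 0.16, adjusted p 0.0118) was not called without that day, at -0.23 over days 12 to 35 (adjusted p 0.371). Id1 passed at no day. At day 21 its cone libraries (12.9, 13.3 and 12.1 CPM) lay below its rod libraries (21.2, 18.7 and 21.0 CPM) with an adjusted p of 0.155, and at day 12 and day 35 they overlapped. Id4 had a log2 fold change of -0.02 ± 0.17 over the mean of days (adjusted p 0.966) and of -0.08 to 0.06 at days 5 to 35. At day 0 its cone primed libraries (31.1, 20.6 and 31.5 CPM) lay below its rod primed libraries (35.9, 42.4 and 43.5 CPM), a difference of -0.55 ± 0.33 that did not pass (adjusted p 0.358). Id4 overlaps A330033J07Rik and Gm49291 on the opposite strand, so its counts may hold their reads.

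At day 5, where 5 of the 10 genes were lower in cone cells, 9 of the 10 cell cycle genes were lower as well, their sum being 604 to 809 CPM in the cone group and 1475 to 1672 CPM in the rod group. Over the mean of days 8 of 10 cell cycle genes and 7 of 12 retinal progenitor markers were lower in cone cells. Of 10 Muller glia markers 3 were higher and 3 lower, with sums of 6577 to 7041 CPM in the cone group and 6183 to 8627 CPM in the rod group at day 35. The part of these cells in the Id and Smad differences was not tested.

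Whether the cone to rod difference itself varied with day was tested over days 0, 5, 12, 21 and 35. It did for 4 of the 10 genes, against 9.22% of all genes: Smad6 (adjusted p 0.000327), Smad7 (0.016), Id2 (0.0189) and Bmp2 (0.0209). For Smad9 (0.391), Bmp4 (0.14) and Bmp7 (0.0756) no such variation was called, although their differences passed at some days and not at others. The call for Id2 was lost without cone primed replicate 3 (0.0505) or cone day 5 replicate 1 (0.0526) or 2 (0.0629). That for Bmp2 was lost without cone day 5 replicate 2 (0.0796) or 3 (0.0766), or rod day 5 replicate 1 (0.0542) or 3 (0.0523).

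The last set of comparisons followed each condition from its primed cells. In culture most of these genes rose in both conditions and Id4 fell. Among the 10 genes, cone cells of days 5, 12, 21 and 35 had 3, 8, 10 and 10 calls, against 22.3%, 48.4%, 52.6% and 57.7% of all genes. Of the 10 called in cone cells of day 35, 9 had risen (31.1% of all genes) and Id4 had fallen (26.5%). Rod cells of the same days had 6, 9, 8 and 9 calls, against 17.5%, 42.4%, 50.8% and 55.6% of all genes. Of the 9 called in rod cells of day 35, 8 had risen (29.4%) and Id4 had fallen (26.2%). The median log2 fold change of the 10 genes at day 35 was 2.13 in cone and 1.82 in rod cells, and that of all genes tested was 0.03 and 0.04. The cone comparisons share the cone primed libraries, and the rod comparisons the rod primed libraries.

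Bmp4 and Smad6 rose most. Bmp4 went from 3 counts in all 3 cone primed libraries, all of them in replicate 2, to 309 counts at day 35, a ratio of 86.0 (29.2 to 419, adjusted p 1.02e-09). In rod cells the ratio of day 35 to primed cells was 23.4 (11.2 to 58.8, adjusted p 7.94e-08). Smad6 rose in cone cells from 6 counts to 431 counts at day 12, a ratio of 62.4 (28.4 to 171), and was at 46.8 times its primed level (21.3 to 128) at day 35. In rod cells, which started higher, Smad6 rose by 2.90 ± 0.28 on the log2 scale by day 21 (adjusted p 3.29e-09). Bmp2 rose in cone cells by 2.93 ± 0.41 by day 35 (adjusted p 8.91e-07), yet its level there, 9.09 ± 0.11 CPM (SD, n = 3), lay within the spread of rod primed cells at day 0, 8.91 ± 4.53 CPM.

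Id3 and Id1 rose in both conditions. Untreated cells held Id3 at 13.4 ± 2.06 CPM, and day 35 cells at 96.6 ± 23.9 CPM in the cone group and 104 ± 17.4 CPM in the rod group (SD, n = 3 each), a log2 rise over primed cells of 2.52 ± 0.34 and 2.42 ± 0.34. Id1 rose by 2.69 ± 0.33 in cone and 1.83 ± 0.31 in rod cells. In rod cells Id3 had risen by day 5 (1.32 ± 0.33, adjusted p 0.00697, or 0.0517 without rod primed replicate 2). In cone cells its change by day 5 was 0.08 ± 0.34 (adjusted p 0.893) and its rise by day 12 was 1.85 ± 0.34. The variation of the Id3 cone to rod difference over all days was not called (adjusted p 0.139). Id2 rose in cone cells by 1.46 ± 0.27 by day 35, whereas in rod cells it peaked at days 5 and 12 (1.00 ± 0.25 and 0.93 ± 0.25) and was not above primed cells at day 35 (0.27 ± 0.25, adjusted p 0.374). Those rod values of Id2 missed the threshold without rod primed replicate 2 at day 5 (0.79, 0.0574) and without rod day 12 replicate 2 at day 12 (0.56, 0.0739) or, at day 12, with only the compared groups in the model (0.94, 0.0936), and the day 5 rise in cone cells (0.88) without cone primed replicate 1 or 3 or cone day 5 replicate 3 (adjusted p 0.0568 to 0.0974).

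Id4, which is tied to neural progenitors and glia, was the only one of the 10 to fall. It went from 31.1, 20.6 and 31.5 CPM in cone primed to 9.81, 7.81 and 10.1 CPM in cone day 35 cells, and from 35.9, 42.4 and 43.5 CPM in rod primed to 4.25, 14.1 and 9.55 CPM in rod day 35 cells. Both sets were without overlap. The log2 fold change was -1.58 ± 0.34 in cone (adjusted p 0.000299) and -2.12 ± 0.34 in rod cells (adjusted p 8.57e-06). The fall by day 21 in cone cells (-0.98 ± 0.34, adjusted p 0.0164) was lost without cone day 21 replicate 2 (0.0596) or 3 (0.0512). The fall by day 12 in rod cells (-0.90 ± 0.33, adjusted p 0.0282) was lost without rod primed replicate 2 (0.0683) or 3 (0.0729), without rod day 12 replicate 1 (0.122) or 3 (0.107), and with only the compared groups in the model (0.0557). Smad7 rose by 1.09 ± 0.20 in cone and 2.06 ± 0.21 in rod cells by day 35, and Smad9 by 1.75 ± 0.48 and 1.76 ± 0.40.

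Markers of several cell types moved over the same days. Muller glia markers summed to 864 to 1139 CPM in cone primed and 6577 to 7041 CPM in cone day 35 cells, 9 of 10 having risen. In rod cells 7 of 10 rose and 1 fell. Of 9 tested mesenchyme markers 9 rose in each condition by day 35, from sums of 2.72 to 9.06 CPM in cone primed and 8.26 to 23.4 CPM in rod primed cells, with Dcn at 0 in the cone primed group. Cell cycle genes fell (9 of 10 in cone and 10 of 10 in rod cells), and so did photoreceptor markers (6 of 8 in each). The part of these cells in the rises was not tested.

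The genes were also compared with each other on a per-length scale, CPM per kilobase of exon in GENCODE M21. Id2 and Id4 were left out here, because the deposited tables place them at shorter spans than their M21 exon lengths, so their length is uncertain. In untreated cells Id3 (7.47 CPM per kilobase), Bmp7 (3.78) and Smad7 (3.20) were the highest of the other 8 genes, and Smad9, Bmp4 and Smad6 (0.0497, 0.0391 and 0.0274) the lowest. Id3 had the highest level of these 8 in each of the 11 groups. At day 35 Id3 reached 54.0 CPM per kilobase in cone and 58.2 in rod cells, and Smad9 was the lowest of the 8 in both (0.417 and 1.23). Among the ligands the order depended on the condition. At day 35 rod cells held Bmp2 at 8.89, Bmp7 at 4.85 and Bmp4 at 2.51 CPM per kilobase, and cone cells held Bmp7 at 7.35, Bmp4 at 3.85 and Bmp2 at 2.56.

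Ranking the 11 groups by mean CPM put most neighbours within each other's range. Of the 10 neighbouring pairs in that order, the libraries did not overlap in 7 for Smad6, in 3 for Bmp4, in 2 each for Id1, Id2, Id3 and Bmp2, in 1 each for Smad7, Smad9 and Bmp7, and in 0 for Id4. The lowest Smad6 step, cone primed above untreated cells, lay within the floor of 3 counts and is no separation. No share over all genes was taken for these steps, so whether these counts are unusual is not known. Rod day 21 cells came first for Bmp2, Smad6, Smad7 and Id1, rod day 12 cells for Smad9, rod day 5 cells for Id2 and rod day 35 cells for Id3. Id4 was highest in rod primed cells, Bmp4 in cone day 35 cells and Bmp7 in cone day 21 cells. Untreated cells came last for Id1, Id2, Id3, Smad6, Smad9 and Bmp2, and rod primed cells for Smad7. For Bmp7 the step that did not overlap lay between cone day 35 (29.6 ± 5.05 CPM) and rod day 35 cells (19.5 ± 3.64 CPM, SD, n = 3 each), so the cone cells of days 21 and 35 stood above the other 9 groups.

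Across the 11 group means, Smad9 followed Id2 (Pearson's r 0.964 of mean log2 CPM) and Bmp2 (0.931), and Smad6 followed Id1 (0.963). Bmp7 ran from -0.25 with Id2 to 0.458 with Smad7 among the Smad genes, Id1, Id2 and Id3, and stood at -0.726 with Id4. Id4 also ran opposite to Bmp4 (-0.866) and Smad7 (-0.862). These values describe 11 means that share libraries, culture time and depth, and carry no test. Of the 11908 genes whose mean log2 CPM was 1 or more, the gene most like Id2 and also most like Smad9 was Gpr179 (0.979 and 0.977). For the ligands the closest were Spred2 for Bmp2 (0.978), Dock5 for Bmp4 (0.998) and Kcna6 for Bmp7 (0.963). For the remaining genes they were F3 for Id1 (0.982), Tpd52l1 for Id3 (0.992), Ubap1l for Id4 (0.978), Pxdc1 for Smad6 (0.992) and Micall1 for Smad7 (0.984).

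The rest of the pathway was described by 59 further genes, of which 50 were tested. These lists were also chosen with earlier results of these data known. Over the mean of days 5 to 35, 11 were higher and 13 lower in cone cells, against 15.6% and 12.2% of all genes. Of 7 receptor genes 3 were lower, Acvr1 (-0.28 ± 0.07, adjusted p 0.00542), Bmpr2 (-0.26 ± 0.04, 6.96e-06) and Bmpr1a (-0.17 ± 0.05, 0.0234). Taken day by day, these 3 were called at day 5 but not at day 12, 21 or 35. Bmpr1b was called higher in cone cells at day 21 alone, by a larger change than any of these. Bmpr1a, a main type I receptor, stood at 146 ± 14 CPM in the cone group and 162 ± 18 CPM in the rod group at day 35 (SD, n = 3 each). Of the signal transducers, Smad1 was lower (-0.24 ± 0.06, adjusted p 0.0024), and Smad5 and Smad4 did not pass.

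By the same mean, the other ligands and antagonists that were called were higher in cone cells, while at day 0 the antagonists Fstl1 and Twsg1 were lower in cone primed than in rod primed cells. Of 4 tested ligands 3 were higher, Bmp6 (2.06 ± 0.27, adjusted p 1.73e-06), Bmp3 (1.64 ± 0.18, 1.04e-07) and Bmp5 (1.59 ± 0.37, 0.00178). Bmp6 reached 6.30 ± 2.45 CPM in the cone group and 1.25 ± 0.87 CPM in the rod group at day 35 (SD, n = 3 each). Of 12 tested secreted antagonists and modulators 3 were higher and none lower. Among them were Grem1, which binds and blocks BMP ligands, and Fst, the activin-binding follistatin (0.75 ± 0.25, 0.0258). Grem1 stood at 64.0 ± 15 CPM in the cone group and 3.40 ± 2.4 CPM in the rod group at day 12 and at 146 ± 67 and 19.8 ± 16 CPM at day 35 (SD, n = 3 each), with a mean log2 fold change of 2.17 ± 0.27 (adjusted p 5.71e-07). Dand5, looked at after the fact as the gene of COCO itself, did not pass the test (-0.18 ± 0.14, adjusted p 0.383). Among 9 intracellular and membrane regulators, Neo1 (-0.72 ± 0.07, adjusted p 1.02e-08) and Skil were lower, and Eng (1.06 ± 0.36, 0.0314), Rgmb (0.70 ± 0.11, 1.21e-05) and Rgma were higher.

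Other genes known to respond to BMP were mostly lower in cone cells. Of 12, 7 were lower (Atoh8, Dlx2, Gata2, Msx2, Tbx2, Tbx3 and Tbx5) and 2 higher (Hey1 and Runx2), with a median log2 fold change of -1.01. Tbx2, a dorsal retina transcription factor, was at 58.1 ± 10 CPM in untreated, 60.7 ± 7.8 CPM in cone primed and 164 ± 4.5 CPM in rod primed cells, and at 49.9 ± 10 CPM in the cone group and 177 ± 17 CPM in the rod group at day 35 (SD, n = 3 each). Its mean log2 fold change was -2.37 ± 0.13 (adjusted p 3.35e-13). Gata2, a zinc finger transcription factor of blood and brain, stayed at or below 1.42 ± 0.56 CPM in cone cells and reached 26.4 ± 5.9 CPM in rod cells at day 21 (SD, n = 3 each). Dlx2, a homeobox gene of neuronal differentiation, was lower, at -2.22 ± 0.51 on the log2 scale (adjusted p 0.00166), at low levels (0.0841 ± 0.0859 CPM in the cone group and 2.29 ± 1.85 CPM in the rod group at day 35, SD, n = 3 each). None of the 3 bHLH partners of Id proteins (Tcf3, Tcf4 and Tcf12) was called over the mean of days.

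The same 59 genes were examined at priming. Rod priming raised 11 of the 50 tested and lowered 2, against 6.71% and 3.56% of all genes. After cone priming 0 of the 50 were called, as were 0% of all genes. Atoh8, a bHLH gene known as a BMP target, was at 0.789 ± 0.28 CPM in untreated cells, 1.01 ± 0.42 CPM in cone primed cells and 56.7 ± 9.3 CPM in rod primed cells (SD, n = 3 each), a log2 fold change of 6.22 ± 0.36 (adjusted p 2.52e-12). By day 35 it was also high in cone cells, at 49.0 ± 6.5 CPM against 80.1 ± 13 CPM in rod cells. Gata2 rose from 0.221 ± 0.206 CPM to 3.87 ± 2.87 CPM (adjusted p 0.000291), and Tbx2 was the third responsive gene to rise, while Hey1 and Runx2 fell. Of the antagonists Fstl1 (1.45 ± 0.33, adjusted p 0.00435), Nbl1 (2.17 ± 0.46, 0.0025) and Twsg1 rose. Nbl1 had a wide spread, at 3.55 ± 3.47 CPM in rod primed cells. The regulators Skil (0.88 ± 0.13, adjusted p 3.09e-05), Rgma (0.75 ± 0.22, 0.0268) and Neo1 rose, as did Bmpr1a (0.47 ± 0.11, 0.00644) and the E protein gene Tcf3 (0.52 ± 0.12, 0.00724).

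The deposited TPM values gave a different picture from the counts. Over genes, log2 TPM and log2 counts correlated at 0.2505 to 0.345 per library, and the gene AY036118, listed with 45.8% to 69.9% of all TPM, had 0 counts in every library. For the 10 genes a test on log2(TPM + 1) with limma called 1 of them over the mean of days and 0 after rod priming. The results above rest on the counts, and the cause of the disagreement was not tested.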

How the data were processed

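RNA was measured by sequencing in 33 libraries (11 groups of 3), made with a Takara low input kit per the labels' protocols. The deposited files hold raw read counts per gene, and the submitters' processing notes name HISAT2, StringTie, HTSeq and GRCm38; versions, strand setting and order are not given in the sources used here. Of the reads listed, 26.94% to 34.87% were in genes, and the rest (65.13% to 73.06%) stood in 5 summary lines that name no gene and were left out. The authors also deposited TPM per gene, used only as an alternative. Counts were tested with edgeR 4.0.16 (R 4.3.3): TMM scaling, filterByExpr with a minimum count of 10, quasi-likelihood F tests in 1 model of 11 group means over all 33 libraries, Benjamini-Hochberg adjustment per comparison over 18150 genes, and a threshold of 0.05. There were 17 comparisons. Change of the cone to rod difference with day was an F test on 4 degrees of freedom. Exact 95% intervals on ratios were taken from summed counts where a group had few. The code was tested on simulated data. Gene lengths and positions came from GENCODE M21, promoters from RefSeq GRCm38.p6, in which 6 of the 10 genes were found; the windows of Id2 and Id3 hold exon bases and are not shown. Tables used Python 3.11.15, and figures matplotlib 3.10.9.

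The 10 genes and all gene lists were chosen with earlier results of these data known. The 10 are always named. Of each pathway list, up to 3 called genes with the largest cone to rod change over the mean of days and up to 2 called at priming are named with values. The gene most like each of the 10 had the highest Pearson's r over group means among the genes searched. Alternatives were DESeq2 1.42.0, its scaling within edgeR, another filter and none, only the compared groups in the model, each library left out, the replicate number as a block, limma 3.58.1 on log2(TPM + 1), and days 12 to 35 only, the last chosen after seeing the data. Values of single genes in some lists are not reported here.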

Additional observations from a re-analysis of the deposited data

Results flagged for a closer look

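For 4 of the 10 genes the cone to rod difference varied between days by a test of the variation itself (edgeR's quasi-likelihood F test on 4 degrees of freedom, adjusted over all genes). Smad6 had the smallest adjusted p, 0.000327, with log2 fold changes of -3.79, -2.10, -0.17, -1.28 and -0.90 at days 0, 5, 12, 21 and 35. Smad7 followed at 0.016, with 0.48, 0.03, 0.34, -0.71 and -0.49. Id2 had an adjusted p of 0.0189, with -1.94, -2.05, -0.96, -0.75 and -0.75. Bmp2 had 0.0209, with -2.92, -4.11, -2.34, -2.90 and -1.80.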

How the results depend on the processing

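Of 99 called results for single genes, 99 kept their call, and the 95 of them with a direction kept it, with DESeq2, with its scaling in edgeR, with a filter at a mean of 1 CPM and with no filter. With the replicate number as a block 99 of 99 were also kept, and the count of called genes changed in none of the 17 comparisons. The numbers were not taken to pair the samples, since of 165 same-number pairs of libraries only 48 had deviations correlated over 0.1 (lowest -0.259, median 0.0164, highest 0.513). That 19 of 33 libraries correlated best with their own number is a hint of pairing from the data, not the design. With only the compared groups in the model 5 of 98 calls were lost, and at day 12 the count of called genes fell from 4 to 1. Over days 12 to 35 alone, 1 of 7 calls was lost (Id3). Leaving out 1 library lost 37 of 816 calls and turned none. The counts called ranged over these from 2 to 4 at day 12, from 3 to 4 at day 21 and from 2 to 5 for the change with day.

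The TPM values gave other results. Of 99 calls 11 were kept, 82 were lost and 6 turned direction, and in 16 the TPM difference was exactly 0. Those that turned were Smad9 between cone and rod cells at day 5 (0.081) and day 35 (0.035) and after rod priming (-0.14), Id4 by day 21 in cone (0.51) and rod cells (0.17), and Bmp7 by day 21 in cone cells (-0.11), all as log2 differences of TPM + 1. The number called was 0 after rod priming. Between cone and rod cells it was 0 for days 0, 5, 12 and 35, 1 for day 21 and 1 for their average. By day 5, 12, 21 and 35 it was 0, 1, 0 and 2 in cone and 1, 2, 2 and 1 in rod cells, and 0 for the change with day. The cause was not tested. Depth limited Bmp4, Smad6 and Smad9 at day 0, where few counts leave wide intervals.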
